A study of Mus musculus with 2 samples.

Results

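The genes that encode the proteasome were examined for binding of GABPα in CD4 T cells. They were taken by symbol from the GENCODE M21 annotation as the protein-coding genes whose names start with Psma, Psmb, Psmc, Psmd, Psme, Psmf or Psmg and go on with a digit, which gave 50 of the 21938 protein-coding genes on chromosomes 1 to 19, X and Y. A gene was counted as bound when a deposited peak lay within 1000 bp of any of its annotated transcript starts. The 50 genes were sorted by role into 16 genes of the core particle, 3 genes of the immune core, 17 genes of the regulatory cap, 6 genes of activators and regulators and 7 genes of assembly factors. The remaining gene, Psmc3ip, is taken by its symbol alone, since its product is a recombination factor and no part of the proteasome.

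Wild-type mice of the C57BL/6 strain gave the CD4 T cells, whose chromatin was precipitated with the GABPα antibody sc-22810X and sequenced, with input DNA as the control. The cells were purified with MACS beads, and neither the age nor the number of the mice is given in the sources used here. The result is 1 list of 6782 peaks from 1 ChIP library, with a start and an end for each peak and no height, read count or score. No peak therefore carries a replicate error, no test between conditions could be made, and the depth of the library is not known from the list. The list holds no expression values, so the cell type named in the labels could not be checked against its markers.

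The proteasome degrades proteins that carry ubiquitin chains. Its barrel-shaped core is built from rings of alpha subunits, which gate the channel, and rings of beta subunits, some of which cut peptide bonds. A regulatory cap with a ring of ATPases and a lid unfolds the substrate and feeds it into the core, other activators can take the place of the cap, and dedicated chaperones put the rings together. In lymphocytes, beta subunits inducible by interferon replace their constitutive counterparts and change which peptides are made for presentation to CD8 T cells. GABPα is the DNA-binding subunit of GABP and belongs to the ETS family, which recognises a GGAA core.

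The sequences below show the letters around the GABP motif CCGGAAG in the bound genes. For each role they come from the widest peak that holds the motif (the 3 widest for core and cap), at the copy nearest a transcript start, and both copies are shown for Psmb10, the only bound immune core gene. Each is 30 bases of GRCm38 (mm10), read 5′ to 3′ on the strand that carries the motif, with the motif in capitals. The last line, from Psmd8, was chosen after its letters were seen because the shorter motif CGGAAG there is followed directly by ATGGCG, the core recognised by YY1; only the GABP letters are in capitals.
Psma6 (chr12:55398812-55398841, plus strand): ccgccggtgctCCGGAAGcagtagccataa
Psmb7 (chr2:38643947-38643976, minus strand): ctctcgcggcgCCGGAAGtgctaagttctt
Psma7 (chr2:180041670-180041699, plus strand): ccacgtgtgttCCGGAAGatccggtgactc
Psmb10 (chr8:105937084-105937113, minus strand): caagctgagttCCGGAAGaggcagcgtcaa
Psmb10 (chr8:105937111-105937140, minus strand): ctgcagggagaCCGGAAGaagacagaccaa
Psmd7 (chr8:107588437-107588466, minus strand): cggcggtcaaaCCGGAAGgggaggtgctgg
Psmc2 (chr5:21785179-21785208, minus strand): cgagccccatcCCGGAAGtgctcactggtc
Psmc3 (chr2:91053950-91053979, minus strand): ttgctgcacaaCCGGAAGaggcgggaggca
Psme3 (chr11:101316203-101316232, minus strand): cgccgctcacgCCGGAAGttgcgtcacagc
Psmg1 (chr16:95991011-95991040, minus strand): ctcgcggcggaCCGGAAGctcttaggttct
Psmc3ip (chr11:101095424-101095453, minus strand): ccgcctcctcaCCGGAAGgaggcgtttccc
Psmd8 (chr7:29180441-29180470, minus strand): ttgccgcatcaCGGAAGatggcggccacag

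In these lines the motif is followed by T at Psmb7, Psmc2 and Psme3, by C at Psma6 and Psmg1, by A at Psma7, Psmb10 and Psmc3 and by G at Psmd7 and Psmc3ip. Over all 24 copies of CCGGAAG in the peaks of the 50 genes, 41.7% were followed by T, 25% by A, 16.7% by C and 16.7% by G. Over the 2572 copies in all peaks near protein-coding genes these shares were 46.5%, 11.6%, 30.3% and 11.6%.

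For 3 bound genes, from the activator, assembly and cap roles, the part of the peak that lies before the first annotated exon is shown in full, on the strand of the gene, with the motif in capitals. These are the stretches of 218, 204 and 148 bases that end at the last base before the first exon of Psme3, Psmg1 and Psmc6.
Psme3 (chr11:101315995-101316212, plus strand): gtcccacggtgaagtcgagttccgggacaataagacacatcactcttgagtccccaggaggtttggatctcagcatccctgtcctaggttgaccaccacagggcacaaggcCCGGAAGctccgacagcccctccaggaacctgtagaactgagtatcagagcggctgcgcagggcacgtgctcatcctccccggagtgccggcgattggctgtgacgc
Psmg1 (chr16:95990961-95991164, minus strand): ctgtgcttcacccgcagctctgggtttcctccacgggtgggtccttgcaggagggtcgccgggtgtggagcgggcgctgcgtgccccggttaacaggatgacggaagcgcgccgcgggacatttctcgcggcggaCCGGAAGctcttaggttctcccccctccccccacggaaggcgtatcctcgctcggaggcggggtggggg
Psmc6 (chr14:45329640-45329787, plus strand): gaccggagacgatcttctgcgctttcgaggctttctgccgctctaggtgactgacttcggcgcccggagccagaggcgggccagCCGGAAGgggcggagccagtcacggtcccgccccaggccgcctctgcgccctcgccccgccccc

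**Figure D1:**
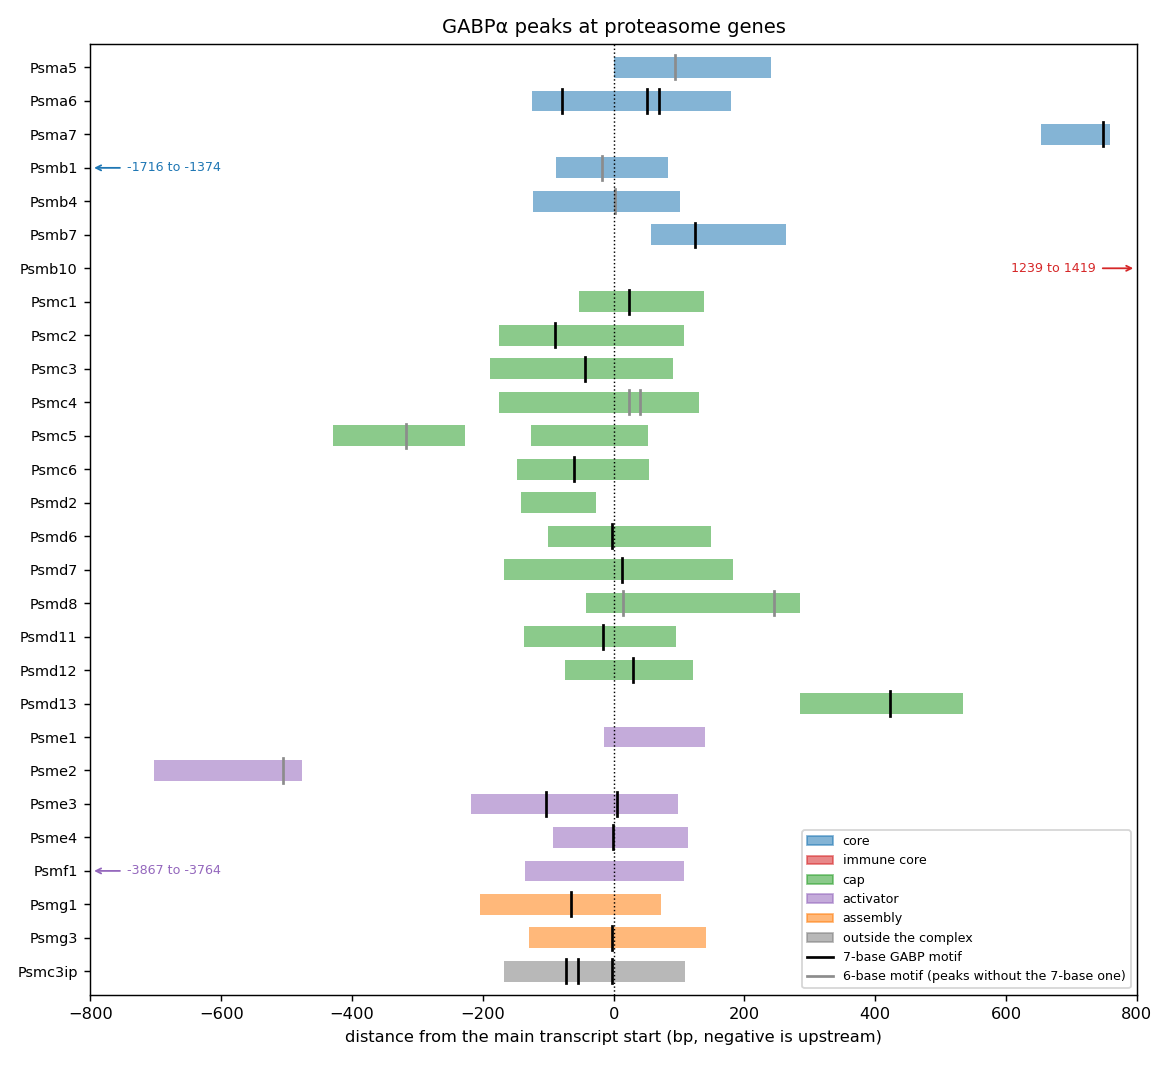
Peaks of the bound proteasome genes drawn by distance from the main transcript start, in bp with negative values upstream. Bars are the deposited peaks coloured by role, black ticks are copies of the 7-base GABP motif, grey ticks are copies of the 6-base motif in peaks without the longer one, and 3 peaks beyond 800 bp are given as arrows with their extent. Most bars cover the start, while those of Psma7, Psmb7, Psmb10, Psmd2, Psmd13 and Psme2 and the second peaks of Psmb1, Psmc5 and Psmf1 do not.

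Of the 50 genes, 28 had a peak no more than 1000 bp from a transcript start (56.0%, Wilson 95% interval 42.3 to 68.8%, which covers counting error only). Over all protein-coding genes the share was 17.7% (3880 of 21938), below the lower bound of that interval. Without Psmc3ip the count was 27 of 49 (55.1%, 41.3 to 68.1%). A transcript start lay inside a peak in 25 genes (50%, 36.6 to 63.4%), against 13.9% of all protein-coding genes. A peak that held CCGGAAG lay near 18 genes (36%, 24.1 to 49.9%), against 10.7%.

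The 28 genes had 31 peaks, with 2 each at Psmb1, Psmc5 and Psmf1. The peak midpoints lay a median of 30 bp from the nearest annotated start of the gene, and 26 of 31 lay within 100 bp (83.9%). For the 3459 peaks near any protein-coding gene these values were 29.0 bp and 80.5%. There the distance was taken to the nearest start of any such gene, while the proteasome peaks were measured to their own gene only. The 2 measures are thus unlike, and 4 of the 31 peaks had a midpoint nearer another gene's start. The limit of 1000 bp was decisive for few genes. The peak of Psma7 was 606 bp and the second peak of Psmf1 was 888 bp from the nearest start, while the nearest peak to an unbound gene was 4005 bp away, at Psmd5.

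In the core particle, 6 of 16 genes had a peak (37.5%, 18.5 to 61.4%). This interval begins just above the 17.7% of all protein-coding genes. It includes the 31.8% of those with a ratio of observed to expected CpG of at least 0.6. The bound alpha ring genes were Psma5, Psma6 and Psma7, and the bound beta ring genes were Psmb1, Psmb4 and Psmb7. Psmb7 encodes the subunit with trypsin-like activity, while the genes of the other catalytic beta subunits, Psmb5 and Psmb6, had no peak. The nearest peaks to those were 68888 and 120349 bp away.

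The widest core peak, of 343 bp, was the second peak of Psmb1 (chr17:15499672-15500014). It covered an upstream start of a coding Psmb1 transcript and also a start of Tbp, the gene of the TATA-binding protein, and its midpoint was nearer to Tbp. The first Psmb1 peak (171 bp, chr17:15498216-15498386) lay over the main start, here the start of the best supported coding transcript. Neither held CCGGAAG, and each held 1 copy of CGGAAG.

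Psma6 had the next widest core peak, of 305 bp (chr12:55398650-55398954), with 3 copies of CCGGAAG at -79, 51 and 70 bp from the main start. Psma5 had a peak of 240 bp that began at its start and ran into the first exon (chr3:108256926-108257165), with CGGAAG and not the longer motif. The peak of Psmb4 (225 bp, chr3:94886861-94887085) covered the start and held CGGAAG at 2 bp from it. At Psmb7 the peak of 207 bp (chr2:38643824-38644030) lay 57 bp inside the gene from the main start and covered the start of a transcript annotated as a retained intron.

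Psma7 had the narrowest core peak, 105 bp wide, which lay over an exon between 654 and 758 bp downstream of the main start (chr2:180041675-180041779). It held CCGGAAG on the strand opposite to the gene. The 10 core genes without a peak were Psma1, Psma2, Psma3, Psma4, Psma8, Psmb2, Psmb3, Psmb5, Psmb6 and Psmb11. Their nearest peaks were between 13334 bp (Psma2) and 148474 bp (Psma8) from a start. Psma8 and Psmb11 encode forms of the core known from testis and from thymic epithelium, and without them 6 of 14 core genes were bound (42.9%, 21.4 to 67.4%), 3 of 7 in each ring.

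Of the 3 immune core genes, which encode the interferon-inducible beta subunits, only Psmb10 had a peak (33.3%, 6.15 to 79.2%). That peak was 181 bp wide and lay in an intron, between 1239 and 1419 bp downstream of the main start (chr8:105937025-105937205). It was counted because it covered the start of a retained-intron transcript, and no start of a coding Psmb10 transcript lay within 1000 bp of it. It held 2 copies of CCGGAAG, on the strand of the gene, at 1318 and 1345 bp. Psmb8 and Psmb9, which lie near each other on chromosome 17, had no peak, and the nearest ones were 21711 and 33301 bp away.

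In the regulatory cap, 13 of 17 genes had a peak (76.5%, 52.7 to 90.4%). All 6 ATPase genes of the base, Psmc1 to Psmc6, were bound (100%, 61.0 to 100%), and so were 7 of the 11 genes of the other cap subunits (63.6%, 35.4 to 84.8%). These 7 were Psmd2, Psmd6, Psmd7, Psmd8, Psmd11, Psmd12 and Psmd13. The difference between both kinds of cap gene was 36.4 percentage points, with a Newcombe 95% interval of -8.05 to 64.6 points that reached below 0.

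The widest of the 31 peaks was at Psmd7, a lid subunit that pairs with the deubiquitinase Psmd14. It was 350 bp wide (chr8:107588283-107588632), spanned -168 to 181 bp around the main start and held CCGGAAG at 12 bp. Psmd8, another lid gene, had a peak of 327 bp (chr7:29180417-29180743) with 2 copies of CGGAAG, at 15 and 245 bp. The peak of Psmc4 was 307 bp wide (chr7:28049971-28050277) and held 2 copies of CGGAAG. Psmc2 had a peak of 282 bp (chr5:21785108-21785389) with CCGGAAG at -89 bp. That peak also covered a start of Dnajc2, and its midpoint was nearer to Dnajc2. At Psmc3 the peak of 280 bp (chr2:91053820-91054099) held CCGGAAG at -44 bp.

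The narrowest cap peak, of 114 bp, was at Psmd2, a large scaffold of the base (chr16:20651511-20651624). It ended 28 bp before the start, and a copy of CCGGAAG began 2 bp beyond its end. The peak as deposited thus held 3 copies of GGAA but neither longer motif. Psmc5 had 2 peaks, one of 179 bp over its start (chr11:106256028-106256206) and one of 201 bp that lay 229 bp upstream (chr11:106255725-106255925). Only the upstream peak held CGGAAG, at -318 bp, and its midpoint was nearer to a start of Ftsj3. The peak of Psmc1 was the next narrowest, at 191 bp (chr12:100110101-100110291), with CCGGAAG at 23 bp.

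The peak of Psmd13 (249 bp, chr7:140882253-140882501) did not reach its main start but lay 285 to 533 bp downstream, over the start of a retained-intron transcript and a start of Sirt3. Psmc6, Psmd6, Psmd11 and Psmd12 each had 1 peak over the main start, with widths of 202, 249, 232 and 196 bp, and each peak held 1 copy of CCGGAAG. Psmd1, Psmd3, Psmd4 and Psmd14 had no peak, and the nearest was 17628 bp away, at Psmd4. Psmd4 encodes a ubiquitin receptor of the cap, and Psmd14 the deubiquitinase of the lid.

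Among the activators and regulators, 5 of 6 genes had a peak (83.3%, 43.6 to 97%). Psme3, which encodes the nuclear form of the PA28 activator, had the widest of these peaks at 317 bp (chr11:101315995-101316311), with CCGGAAG at -104 and 5 bp. The peak of Psme4, the gene of the activator PA200, was 205 bp wide (chr11:30771634-30771838) and held CCGGAAG at -1 bp. Psmf1, which encodes the regulator PI31, had a peak of 243 bp over its main start (chr2:151741204-151741446) with 6 copies of GGAA and neither longer motif.

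The second peak of Psmf1 was the narrowest of the 31, at 104 bp (chr2:151745074-151745177), 888 bp upstream of another start. All of its bases were soft-masked as repeats in the reference, and none of its 69 sequences of 36 bases, the length of the reads, was found only once in the 21 chromosomes. Psmf1 was counted as bound without it.

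Psme1 and Psme2 encode the cytoplasmic PA28 subunits, which are induced by interferon. The peak of Psme1 was 155 bp wide (chr14:55578345-55578499), covered the main start and held 2 copies of GGAA but no longer motif. The peak counted for Psme2 was 227 bp wide (chr14:55591564-55591790) and lay 451 bp upstream of its nearest start, over a start of the divergent gene Rnf31, which encodes a ubiquitin ligase. Psme2b, a gene with 1 annotated transcript whose symbol ties it to Psme2, had no peak, and 34.2% of the sequences of 36 bases around its start were found once in the chromosomes. Whether this bears on the missing peak was not tested.

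Of the 7 assembly genes, 2 had a peak (28.6%, 8.22 to 64.1%). Psmg1 and Psmg3 encode chaperones of the alpha ring. The peak of Psmg1 was 276 bp wide (chr16:95990889-95991164) with CCGGAAG at -66 bp, exactly at the peak midpoint. That of Psmg3 was 270 bp wide (chr5:139826745-139827014) with CCGGAAG at -2 bp. Their partners Psmg2 and Psmg4 had none, with the nearest at 82591 and 119754 bp. None of Psmd5, Psmd9 and Psmd10, the chaperones of the ATPase ring, had a peak (0 of 3, an upper bound of 56.1%).

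The peak at Psmc3ip was 277 bp wide (chr11:101095328-101095604) and held 3 copies of CCGGAAG, at -3, -55 and -73 bp. With Psma6, Psmb10 and Psme3 it was among the 4 of 31 peaks with more than 1 copy (12.9%), against 13.9% of all peaks near protein-coding genes.

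**Figure D2:**
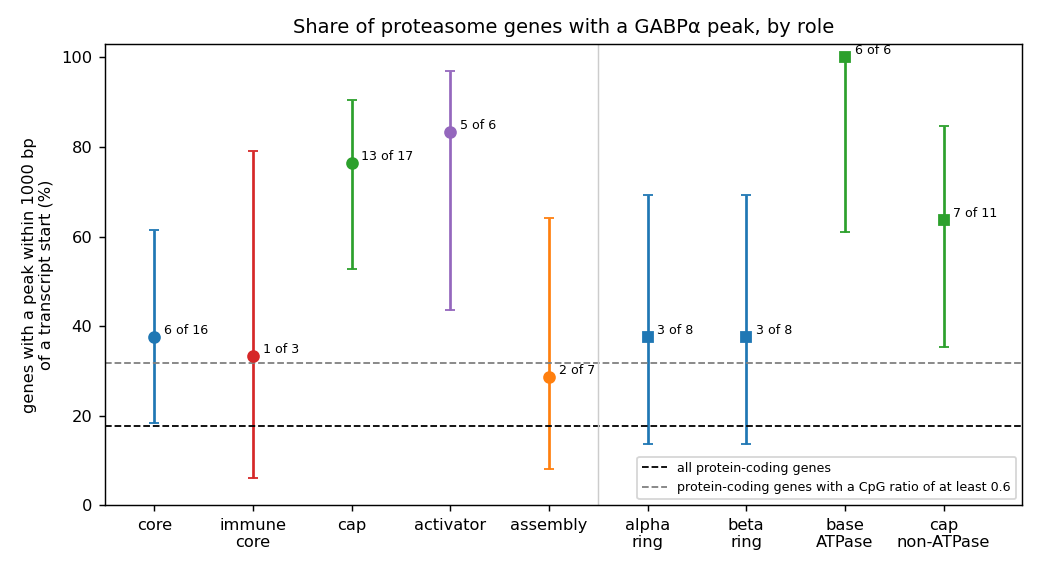
Percentage of genes with a peak no more than 1000 bp from a start, for the 5 roles (circles) and for the subgroups of core and cap (squares). Bars are Wilson 95% intervals over genes, and dashed lines are the shares of all protein-coding genes (17.7%) and of those with a CpG ratio of at least 0.6 (31.8%). The intervals of the cap, its subgroups and the activators lie above both lines. That of the core includes the upper line only, and those of both rings, the immune core and the assembly genes include both lines.

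When the roles were set side by side, the cap share was above the core share by 39.0 percentage points (Newcombe 95% interval 5.32 to 62.6). Without Psma8 and Psmb11 the difference was 33.6 points, and its interval reached 0 (-0.534 to 59.2). Against the 32 genes of all other roles, of which 43.8% were bound, the cap share was higher by 32.7 points (3.57 to 53.7). Against the assembly genes it was higher by 47.9 points (5.17 to 72.6). The cap count includes Psmc2, whose peak midpoint was nearer a start of Dnajc2. The differences were not computed without that gene, and their lower bounds lie close enough to 0 that they could reach it. The alpha and beta rings, without their tissue-specific forms, did not differ (0 points, -42.0 to 42.0), an interval wide enough to leave a large difference in either direction undetected. These intervals treat genes as independent draws, come from 1 list of peaks and are not adjusted for the number of pairs.

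Peak width was the only measure of size in the list. The 31 peaks had a median width of 232 bp (quartiles 194 and 278, range 104 to 350), and the peaks near all protein-coding genes a median of 210 bp (quartiles 159 and 267). The medians by role were 225 bp in the core, 240 bp in the cap, 216 bp in the activators and 273 bp at the 2 assembly genes. Each role with more than 2 peaks held both narrow and wide ones, and their ranges overlapped. The wide end of the list was not reached, since the widest peak near any protein-coding gene was 5151 bp.

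**Figure D3:**
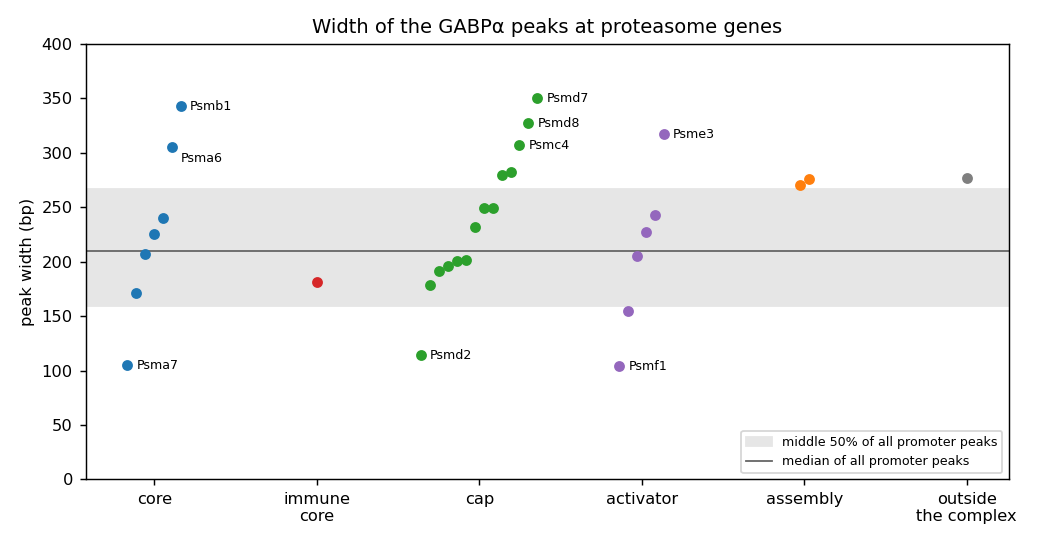
Width in bp of each of the 31 peaks by role, with peaks of at least 300 or at most 120 bp named. The grey band is the middle 50% and the line the median (210 bp) of all peaks near protein-coding genes, and the core, cap and activator peaks spread to both sides of the band.

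CCGGAAG was found in 18 of the 31 peaks (58.1%, 40.8 to 73.6%), and in 57.2% of all peaks near protein-coding genes. For CGGAAG, which includes every copy of CCGGAAG, the shares were 83.9% and 76.6%, and for the core GGAA they were 100% and 98.8%. All motifs were searched as exact matches on both strands. The shares over all promoter peaks lay inside the intervals of the proteasome peaks (67.4 to 92.9% for CGGAAG, 89% or more for GGAA). Of the 24 copies of CCGGAAG, 15 were on the strand of the gene and 9 on the other strand. They lay a median of 43.0 bp from the nearest start, 22 within 100 bp of one, and 21 within 50 bp of the midpoint of their peak. These distances were not computed for the copies in all promoter peaks, so they are not shown to be particular to the proteasome genes.

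The motif was also counted in the promoter window from 250 bases before to 50 bases after the main start, whether or not a peak lay there. CCGGAAG was present in 18 of the 50 promoters (36%), in 11.1% of all protein-coding promoters and in 18.9% of those with a CpG ratio of at least 0.6. By role, it was present in 10 of 17 cap promoters, 2 of 16 core promoters, 3 of 6 activator promoters, 2 of 7 assembly promoters and none of the 3 immune core promoters. Of the 18 genes with the motif in this window 15 had a peak, and of the 32 genes without it 13 had a peak. Over all protein-coding genes a peak was present at 69.8% of those with the motif and at 11.2% of those without.

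The 3 genes with CCGGAAG in the window and no peak were Psma8, Psmd4 and Psme2b. At Psmd4 the copy lay at -122 bp (chr3:95042733-95042739) and was 26445 bp from the nearest peak. Psma8 had 2 copies, at -29 and 14 bp. A match says only that these letters are present.

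Other motifs were counted in the same windows. ATGGCG, the core of the YY1 motif, was present in 13 of 50 promoters (26.0%), against 10.7% of all protein-coding promoters and 17.0% of those with a high CpG ratio. By role it was in 9 of 17 cap promoters and 3 of 16 core promoters, and it was found in 8 of the 28 bound and 5 of the 22 unbound genes. GCATGCGC, the motif of nuclear respiratory factor 1, was present in 4 promoters (8%, against 3.75% of all and 6.02% of those with a high CpG ratio). These were the promoters of Psma2, Psmc3, Psmc5 and Psmg1. TGACNNNGC, the antioxidant response element read by Nfe2l1 and Nfe2l2, was present in 7 promoters (14%, against 12.8% and 14.7%). These were the promoters of Psmb2, Psmb5, Psmb6, Psmc6, Psmd7, Psmd12 and Psmd9. Of these 7 genes, Psmc6, Psmd7 and Psmd12 had a GABPα peak.

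GGGCGG of the Sp family was present in 30 promoters (60.0%, against 45.2% of all and 72.0% of those with a high CpG ratio). CCAAT, the NF-Y motif, was present in 18 (36%, against 38.7% of all and 37.5% of those with a high CpG ratio). GAANNGAAA, searched here for the interferon response, was present in 4 (8%, against 7.38% of all and 5.33% of those with a high CpG ratio). None of the immune core promoters held it. An exact match to this pattern misses other forms of the element, so whether those promoters hold such an element was not tested. CCGGAAG contains CGGAAG, which contains GGAA, and no other motif of the set contains another in its fixed letters.

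**Figure D4:**
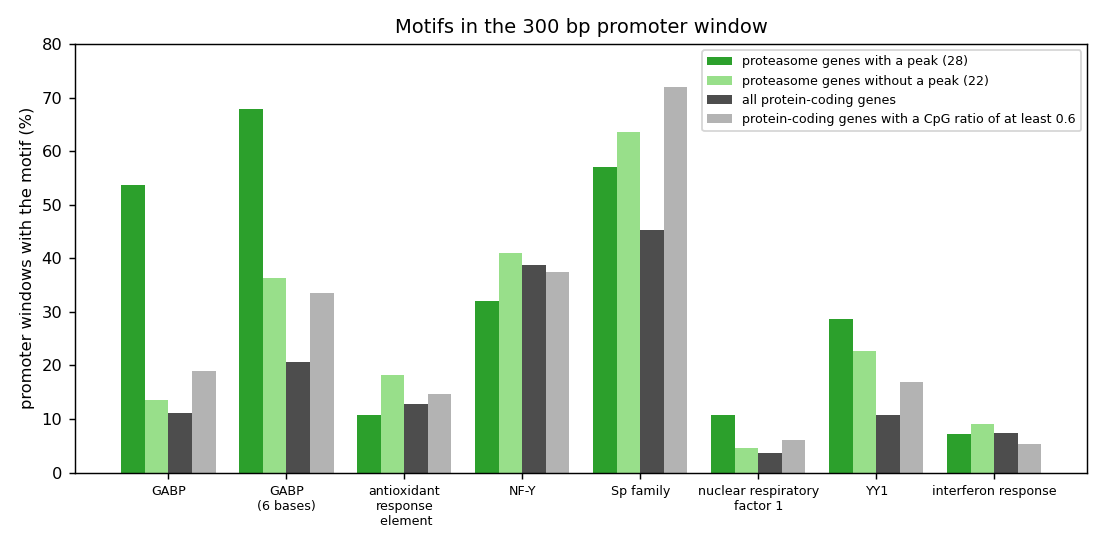
Share of promoter windows of 300 bp, in percent, that hold each motif, for the 28 bound and the 22 unbound proteasome genes, all protein-coding genes and those with a CpG ratio of at least 0.6. The GABP motif stands at 53.6% in the bound and 13.6% in the unbound genes, while the other motifs differ less between these groups.

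GABPα peaks were more frequent at promoters rich in CpG, so the genes were also compared within classes of the ratio of observed to expected CpG in the 1000 bp around the main start. Of the 50 genes, 41 had a ratio of at least 0.6, and 25 of these were bound (61.0%, 45.7 to 74.3%), against 31.8% of the protein-coding genes in this class. Of the 9 genes under 0.6, Psmb10, Psme1 and Psme2 were bound (33.3%, 12.1 to 64.6%), against 5.03%. At 0.265 Psmb10 had the lowest ratio of the 3, with 0.403 at Psme1 and 0.430 at Psme2. The peaks of Psmb10 and Psme2 lay outside the promoter window in which the motif was counted.

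A divergent gene, with a start on the other strand within 1000 bp of the main start, was found at 10 of the 50 genes. Of these 10 genes 5 were bound, against 23 of the 40 others. The shares over all protein-coding genes with and without a divergent gene were not computed, so these counts have no background beside them. The 5 bound pairs were Psma7 with Ss18l1 (76 bp between starts), Psmc2 with Dnajc2 (32 bp), Psmc5 with Ftsj3 (75 bp), Psmd13 with Sirt3 (99 bp) and Psme2 with Rnf31 (621 bp), and in each the partner had the same peaks. Which gene of such a pair a peak belongs to cannot be told apart in these data. Tbp, which shares the second peak of Psmb1, is not among the 10 because that peak lies at an upstream Psmb1 start and not at the main one. The unbound pairs were Psma2 with Mrpl32 (75 bp), Psma4 with AY074887 (208 bp), Psmb9 with Tap1 (30 bp), Psmd10 with Atg4a (218 bp) and Psmg2 with Cep76 (263 bp). When a peak was given only to the gene with the start nearest its midpoint, 26 of the 50 genes kept a peak (52.0%), and Psmc2 and Psme2 lost theirs. This setting was chosen after the data were seen. The share of all protein-coding genes was not computed under it, so the 52.0% cannot be set against the 17.7% of the main setting.

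Other genes of the pathway were taken from a list of proteasome-associated factors, of which 17 genes were examined, and 6 of these had a peak within 1000 bp (35.3%, 17.3 to 58.7%). This interval includes the 31.8% of protein-coding genes with a high CpG ratio, a class that holds 16 of the 17 genes, and only just the 17.7% of all protein-coding genes. Adrm1, the gene of a ubiquitin receptor of the cap, had the widest peak at 377 bp (chr2:180171321-180171697). Pomp, the gene of the chaperone that matures the core, had a peak of 286 bp (chr5:147860460-147860745) with 2 copies of CCGGAAG. Nfe2l1, which encodes the factor that raises proteasome gene transcription when the proteasome is inhibited, had 2 peaks, the wider of 229 bp (chr11:96829876-96830104).

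The others with a peak were Txnl1 (270 bp), Ube3c (253 bp) and Ubqln4 (182 bp). Sem1, Uchl5, Usp14, Ecpas, Akirin2, Ddi2, Rad23b, Ubqln1, Uba1, Vcp and Ubb had none. Of 5 genes of antigen processing that work downstream of the immune core, Tap1, Tap2, Tapbp, Erap1 and B2m, none had a peak, and the nearest was 3210 bp from a start of Tapbp. With 5 genes the upper bound of that share was 43.4%, so it was not set apart from the 17.7% of all protein-coding genes.

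The proteasome genes were set beside 2 other families, found by their symbols. Of 78 genes of mitochondrial ribosomal proteins, 48 had a peak (61.5%, 50.4 to 71.6%), and the proteasome share differed from it by -5.54 points (-22.5 to 11.4). Of 37 genes of ubiquitin-conjugating enzymes, 11 had a peak (29.7%, 17.5 to 45.8%), and the proteasome share was higher by 26.3 points (5.17 to 44.0).

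How far reads of 36 bases can be placed was read from the reference, by exact matches only. The study kept trimmed reads down to 30 bases, for which the shares could be lower, and this was not examined. In 28 of the 31 peaks every sequence of 36 bases was found once in the chromosomes, and the exceptions were the second peak of Psmf1 (0%), the first peak of Psmb1 (94.1%) and the peak of Psmd11 (97.5%). Around the main starts of the 22 unbound genes the share had a median of 100%, and it was under 90% at Psme2b (34.2%), Psmb5 (68.6%) and Psma3 (89.5%). For the other 19 unbound genes it was at least 97.8%.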

How the data were processed

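GABPα-bound DNA and input DNA of CD4 T cells were sequenced by the authors as 36-bp single-end reads. Per the study's methods, trimmomatic removed adapters and bases of quality under 20, reads under 30 bases were dropped, bowtie aligned the rest to mm10, and MACS2 called peaks at a q-value cutoff of 0.01. Versions are not given in the sources used here. The deposited file gives peak positions only, with no signal, and the starts were read as 0-based. The input has no file of its own.

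From these positions, peaks within 1000 bp of transcript starts of GENCODE M21 were counted, with Python 3.11.15, pysam 0.24.0 and statsmodels 0.14.6. Sequences came from GRCm38, in which the peaks all fit. The main start is that of the best supported coding transcript, a definition chosen after the data were seen. Intervals are Wilson or Newcombe at 95% and cover counting error only. With 1 ChIP library no test was made and no replicate could be left out. Every gene of the group is accounted for, and values are given for every bound immune core, activator and assembly gene, and for core and cap for the 5 widest and 3 narrowest peaks and genes with several peaks or motif copies. The genes, roles, pathway list and motifs were chosen with earlier results of these data known. Some genes of the pathway list are not reported here, and Paaf1 was not found as a protein-coding gene in the annotation. The counting, motif and uniqueness steps were tested on simulated data. Distance, transcripts, peak filters, overlap and motif were varied.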

Additional observations from a re-analysis of the deposited data

How the results depend on the processing

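There is 1 ChIP library, so none of these values has a replicate error, and intervals over genes say nothing of how a repeat of the experiment would turn out. The deposited list gives neither depth nor peak height, so a gene without a peak is one at which none was called at the threshold used. Of 84 values recomputed under another setting, 76 stayed inside the 95% interval of the main value and 8 did not. Many of these values are role shares over 3 to 17 genes, with intervals wide enough for a large shift to stay inside. The activator share, for example, went from 83.3% to 66.7% with peaks of at least the median width. The share of all protein-coding genes with a peak went from 17.7% to 17.2% within 500 bp, 16.9% upstream only, 16.4% with outermost starts and 14% with peaks of at least the median width. The immune core share was 0% with coding transcripts only and 0% with outermost starts, since the Psmb10 peak lies near non-coding starts. The motif share of the 31 peaks rose from 58.1% to 83.9% with CGGAAG and to 100% with GGAA, because shorter motifs match more often. The share of the 50 genes with a peak ranged from 50% to 56.0%, and it was 58.3% of the 48 genes without Psma8 and Psmb11 and 55.1% of the 49 without Psmc3ip. Psma7 was lost within 500 bp, Psma5 and Psma7 upstream only, Psma6 and Psmb10 with outermost starts, and Psma7, Psmd2 and Psme1 with wide peaks only. The core share fell to 25% upstream only. The share of the 50 genes with a start inside a peak went from 50% to 38.0% with outermost starts, which was still inside its interval. That setting lost Psma6, Psmb7, Psmb10, Psmd13, Psme1 and Psmf1. The matching share over all protein-coding genes was not computed. Promoter windows at the outermost start, other distances for the families compared, peaks without unique sequence and nearest-start assignment were added after the data were seen. No paired analysis was possible because there is 1 ChIP library.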
